A study of Oncorhynchus kisutch with 9 samples.

Results

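At 82 of 8736 spots of a salmonid cDNA microarray, liver RNA of both growth hormone transgenic pools differed from that of the non-transgenic pool in the same direction, while the transgenic pools differed little from each other. These alike spots were chosen by their measured ratios. The log2 ratio of full-ration transgenic over control (T over C, written T/C) and that of ration-fed transgenic over control (R over C, R/C) had to be at least 0.8 in size, 1.74-fold, with the same sign. The ratio of full-ration over ration-fed transgenic (T over R, T/R) had to be below 0.5 in size, 1.41-fold. All parts of the rule together were met by 0.939% of spots. The size limit was passed by 5.79% of spots in T/C and by 1.55% in R/C, and 91.1% lay below the limit in T/R. Since the rule used all 3 comparisons, the ratios of these spots are a description of what was chosen and no test was made on them.

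Growth hormone is released by the pituitary and acts on the liver through a receptor that signals by JAK2 and STAT5. The liver answers with insulin-like growth factor I and with changes in carbohydrate, lipid and protein metabolism. Coho salmon carrying an added growth hormone gene grow faster and, where food is plentiful, eat more than their non-transgenic counterparts, so their liver can differ from that of controls through the hormone and through food intake. Restricting the food of transgenic fish is a means of looking at the transgene with less of the intake difference.

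The 3 conditions were adult coho salmon (Oncorhynchus kisutch) without the transgene (C), transgenic fish described as ration-fed (R) and transgenic fish on full ration (T). Each condition was a single pool made of equal RNA amounts from 5 fish, and 20 ug of total RNA was labelled for each hybridisation. No source used here gives the promoter of the transgene, the strain of the controls, the age in years or the amounts fed. The 9 arrays formed a loop of 3 comparisons with 3 arrays each, 1 of them in the opposite dye order. The arrays of a comparison are technical repeats on the same RNA, so the SDs below describe hybridisations of these pools and not the variation between fish. T/C and R/C have the control pool in common. A difference that follows the transgene and a deviation of the 5 control fish from other controls therefore cannot be told apart at these spots, and nothing below separates them. In a bulk liver sample, fewer cells of a type and less RNA per cell cannot be told apart either.

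The numerator dye of the deposited ratios is not stated in those sources, so the pool with more transcript is not named. Direction 1 stands for positive and direction 2 for negative values after the arrays were turned by their dye order. If the ratios are Cy5 over Cy3, direction 1 means more signal in the transgenic pools, and if they are Cy3 over Cy5 it means less. A spot's main value is the mean of the 2 dye orders on median-centred arrays. Because centred values moved with the dye order, array values are also given after a smooth curve on the mean of the 9 arrays was subtracted, called removal of the dye trend below, and SDs are quoted on that scale. The array medians of the deposited values ran from -1.39 to -0.586.

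Of the 82 spots, 64 lay in direction 1 and 18 in direction 2. By the sign of T/C, 43.1% of all spots lay in direction 1. In the other classes of spots with a T/C ratio of at least 0.8, described below, 77.9% to 82.0% did. The lean to direction 1 was thus not particular to the alike spots. The number chosen rested on the arrays that stand alone in their dye order, and was 36 without T/C array 1, 138 without R/C array 3 and 20 without T/R array 3. The 82 spots fell on 48 print pairs, which are neighbouring spots of a row that behave as duplicates. At 34 pairs both spots were chosen, 27 in direction 1 and 7 in direction 2, and at 14 pairs a single spot. The median difference was 2.42-fold in T/C and 2.16-fold in R/C, and 1.16-fold in T/R. The largest was 6.56-fold in T/C and 5.48-fold in R/C. Spots in direction 2 reached further than those in direction 1, whose largest differences were 4.00-fold and 3.71-fold. A mean of at least 2-fold, with every centred array of the comparison on that side, was found at 63 of the 82 spots in T/C, where 2.54% of all spots had one, and at 49 in R/C, against 0.916% of all spots. Both held at 43 of the 82 spots and at 60 of all 8736 spots. The rule asks for 1.74-fold in both means, so the excess over all spots is in part set by the choice.

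**Figure D1:**
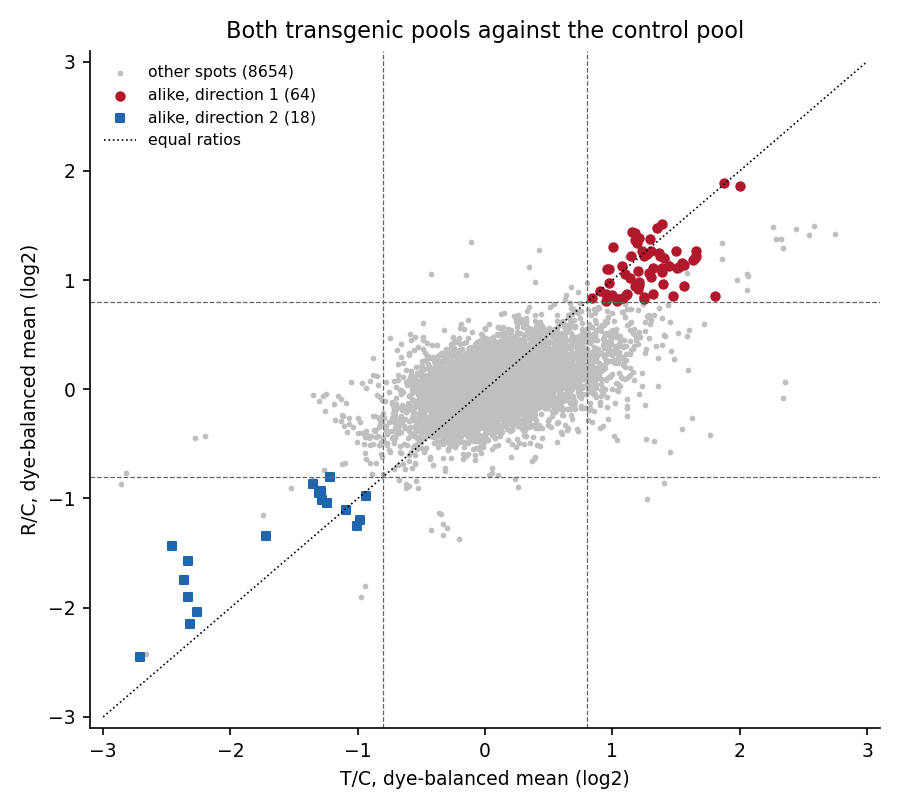
Dye-balanced mean log2 ratios of T/C (horizontal) and R/C (vertical) for the 8736 spots, with the 64 alike spots of direction 1 as red circles and the 18 of direction 2 as blue squares. Dashed lines mark the size limit of 0.8 and the dotted line equal ratios. The alike spots lie along the dotted line, and most of them on the side where T/C is the larger.

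None of the 82 spots carries a gene name in the platform annotation used here, which names 8 spots of 4 genes. The spots are therefore identified by their array number, and the function of their transcripts is not described. None of 19 genes of the growth hormone axis and none of 12 hepatocyte markers had a named spot, so the labelled tissue was not checked against its markers. Of 16 genes of liver metabolism 2 had a named spot, pck2 and pparg, and neither was among the alike spots. The connective tissue marker col1a2 and the antigen-processing gene tap1, each on 1 pair, were not among them either. Markers of red blood cells, endothelium and pancreas had no named spot.

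The strongest pair of direction 1 by the smaller of its T/C and R/C ratios was the one starting at spot 1011001. With the dye trend removed it stood at 1.63, 1.82 and 2.02 on the 3 T/C arrays, at 1.90, 2.06 and 1.54 on the R/C arrays and at -0.11, -0.35 and -0.28 on the T/R arrays. All 6 arrays against the control lay far from 0 on one side, and the 3 T/R arrays lay near 0 on the other. Its dye-balanced differences were 3.83-fold in T/C and 3.67-fold in R/C. The SD over 3 arrays was 0.20 and 0.26 on the log2 scale, so the difference between these folds was smaller than the spread of the arrays.

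The next 5 pairs of direction 1 were close to one another, at 2.48-fold to 2.64-fold in T/C, with the exception of pair 2021001 at 2.4-fold, and at 2.34-fold to 2.82-fold in R/C. Pair 1030313 stood at 1.21, 1.17 and 1.30 on the 3 T/C arrays, at 1.33, 1.32 and 1.44 on the R/C arrays and at 0.10, -0.02 and 0.03 on the T/R arrays. Its R/C arrays were all above its T/C arrays. Pair 5041205 stood at 1.28, 1.23 and 1.31 on the 3 T/C arrays, at 1.29, 1.05 and 1.14 on the R/C arrays and at 0.07, 0.23 and 0.24 on the T/R arrays. Pair 2021001 stood at 1.27, 1.24 and 1.31 on the 3 T/C arrays, at 1.12, 1.38 and 1.21 on the R/C arrays and at 0.10, -0.10 and -0.02 on the T/R arrays. In both pairs the arrays against the control overlapped between the rations and none of them came near a T/R array. Pair 4041207 had log2 ratios of 1.23 ± 0.04 in T/C, 1.11 ± 0.19 in R/C and 0.10 ± 0.07 in T/R (dye-balanced mean ± SD of the 3 arrays, without the dye trend). Pair 3040511 had 1.19 ± 0.22, 1.11 ± 0.05 and 0.32 ± 0.05 in the same order, and its 3 T/R arrays, at 0.31, 0.25 and 0.36, all lay on the side of T/C. The rule keeps such a difference as long as it stays below its limit.

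The strongest pair of direction 2 started at spot 7040603, with 4.89-fold in T/C and 4.27-fold in R/C. With the dye trend removed it stood at -2.53, -2.38 and -2.73 on the 3 T/C arrays, at -1.94, -2.42 and -2.23 on the R/C arrays and at -0.58, -0.25 and -0.40 on the T/R arrays. The arrays of T/C and R/C overlapped, and all 3 T/R arrays lay on their side of 0. Pair 3030713 differed by 5.09-fold and 3.54-fold. It stood at -2.49, -2.84 and -2.53 on the 3 T/C arrays, at -1.90, -1.66 and -2.11 on the R/C arrays and at -0.53, -0.76 and 0.12 on the T/R arrays. Here every T/C array was larger in size than every R/C array, and the T/R arrays disagreed, with array 3 on the other side of 0. Pair 4030703 differed by 5.26-fold in T/C but by 2.84-fold in R/C, the least even of the 3 strong pairs. It stood at -2.37, -3.21 and -2.65 on the 3 T/C arrays, at -1.84, -2.02 and -1.30 on the R/C arrays and at -0.47, -0.52 and -0.08 on the T/R arrays. Its T/C arrays were all larger in size than its R/C arrays, and its T/R arrays lay on the same side of 0.

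The other leading pairs of direction 2 were smaller. Pair 11020411 stood at -1.11, -1.19 and -1.22 on the 3 T/C arrays, at -1.31, -1.17 and -1.33 on the R/C arrays and at -0.11, 0.03 and 0.05 on the T/R arrays. It had the smallest T/R ratio of all full pairs, 0.01 as a dye-balanced mean, and its R/C difference of 2.26-fold was slightly above its T/C difference of 2.07-fold. Pair 1010413 had -1.40 ± 0.15 in T/C, -1.11 ± 0.26 in R/C and -0.21 ± 0.01 in T/R. Pair 10021311 had -1.37 ± 0.07, -1.08 ± 0.16 and -0.30 ± 0.02 in the same order. Both pairs kept a T/R ratio on the side of T/C that was larger than its own SD.

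**Figure D2:**
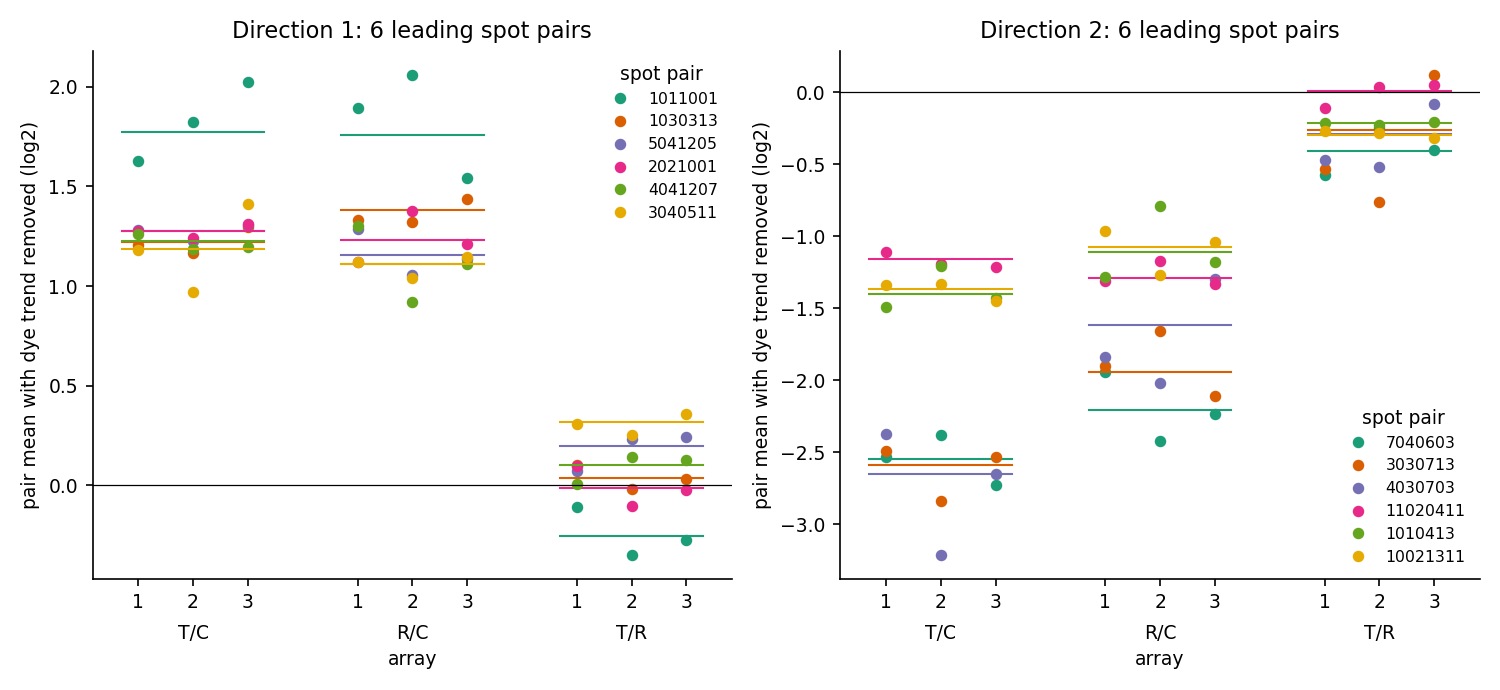
Log2 ratios of the 6 leading spot pairs in each direction on the 9 arrays, with the dye trend removed. Points are means of the 2 spots of a pair on 1 array, and each line is the dye-balanced mean over the 3 arrays of a comparison. All T/C and R/C points lie at 0.788 or more in size, and those of T/R lie between -0.76 and 0.36.

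Beside these and pair 1010309, described with the loop, 20 full pairs of direction 1 and 1 of direction 2 remained. The 20 pairs had log2 sizes of 0.97 to 1.64 in T/C with a median of 1.18, and of 0.81 to 1.41 in R/C with a median of 1.07. Their T/R ratios had sizes of 0.03 to 0.39 and lay on the side of T/C at 13 pairs. R/C exceeded T/C at 7 of the 20. The most tilted toward R/C was pair 8041201, which stood at 0.67, 0.91 and 0.82 on the 3 T/C arrays, at 0.90, 0.94 and 1.23 on the R/C arrays and at 0.04, 0.16 and -0.25 on the T/R arrays. The most tilted toward T/C was pair 6040909, which stood at 1.43, 1.33 and 1.18 on the 3 T/C arrays, at 0.73, 1.05 and 1.02 on the R/C arrays and at 0.19, 0.34 and 0.17 on the T/R arrays. Within pair 6040909 every T/C array exceeded every R/C array, while at pair 8041201 they overlapped slightly. The remaining pair of direction 2, 11041209, stood at -1.50, -1.60 and -1.38 on the 3 T/C arrays, at -0.87, -0.80 and -0.98 on the R/C arrays and at -0.78, -0.38 and -0.41 on the T/R arrays. All of its T/C arrays were larger in size than its R/C arrays, and its T/R arrays lay on their side.

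Across the set, the array values moved with the dye order until the trend was removed. For the 64 spots of direction 1 the median centred value on the T/C arrays was 2.01 on array 1, which has T in Cy5, and 0.27 and 0.72 on arrays 2 and 3, which have T in Cy3. With the trend removed the medians were 1.10, 1.19 and 1.14. On the R/C arrays these medians were 1.00, 1.00 and 1.04, and on the T/R arrays 0.10, 0.17 and 0.01. All 64 spots lay on the positive side on each of the 6 arrays against the control, and on the T/R arrays 41, 42 and 34 of them did.

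For the 18 spots of direction 2 the medians with the trend removed were -1.52, -1.60 and -1.52 in T/C. They were -1.32, -1.29 and -1.29 in R/C. All 18 were negative on each of these 6 arrays. On the T/R arrays the medians were -0.46, -0.32 and -0.28, and 18, 17 and 14 of the 18 spots were negative. In direction 2 the small T/R ratios thus lay mostly on the side of T/C. With the trend removed, array signs did not differ within T/C at any of the 82 spots, where 48.7% of all spots had 1 sign throughout, nor within R/C, against 40.3%. Within T/C they did not differ at any other spot of at least 0.8 in size either, so this is not particular to the alike spots. Within T/R, 52 of the 82 spots had 1 sign, against 45.8% of all spots. On the centred values that the rule used, 71 of the 82 had 1 sign in T/C, 72 in R/C and 5 in T/R, against 17.0%, 16.2% and 21.2% of all spots. The rule asks for large T/C and R/C means and a small T/R mean. These contrasts with all spots, before and after removal of the trend, are therefore in part set by the choice. On the centred T/C array 2 it was 53 of the 64 spots of direction 1 that lay on their side, and on R/C array 2 14 of the 18 of direction 2.

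The R/C log2 ratio was 83.9% of that of T/C at the median spot, with quartiles of 75.3% and 100.1% and a range of 47.1% to 129%. This median depended on both dye orders being present, and was 190% without T/C array 1, 141% without R/C array 3 and 126% with plain means of the arrays. With the dye trend removed it was 86.5%, and 84.6% to 87.9% when 1 array was also left out. In the dye-balanced means R/C exceeded the T/C ratio at 21 spots, 17 of direction 1 and 4 of direction 2. Over all 8736 spots it did so, with the sign of T/C, at 1952. The 2 shares are not on a like footing, since the rule gives every alike spot equal signs and other spots can have opposite ones. The rule restricts R/C as a percent of T/C, since R/C has a limit of its own. A spot with R/C far below or far above T/C would also tend to exceed the T/R limit and be left out. T/R was measured on separate arrays, so that bound is not strict. Measured T/R lay on the side of T/C at 60 spots and on the other side at 22, of which 21 were in direction 1. Over all 8736 spots it lay on the side of T/C at 6239, a share close to that of the alike spots. In the sense of T/C the median of measured T/R was 0.18 on the log2 scale at the alike spots, against 0.13 over all spots.

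The loop gives T/R a further time, as T/C minus R/C. This difference was below the limit of 0.5 in size at 76 of the 82 spots, and its median in the sense of T/C was 0.22. Over all 8736 spots it was below that limit at 7782, a share close to that of the alike spots, and the median was 0.17. The rule used T/C and R/C, so this difference is not independent of the choice. The 6 other alike spots were 3 of direction 1 and 3 of direction 2. The widest gap was at pair 4030703, where the difference was -0.89 and the measured T/R ratio -0.12. Pair 3030713 had -0.52 against -0.13. In direction 1 the largest difference was at pair 1010309, which also had the largest measured T/R ratio of a full pair, with 0.68 against 0.45. This pair differed by 3.17-fold in T/C and 1.98-fold in R/C. The misfit between both estimates had a median size of 0.10 at the alike spots and 0.16 over all spots. In the other classes of spots with a T/C ratio of at least 0.8, described below, it was 0.13 to 0.15. The misfit is made of the ratios that the rule limits, so these contrasts are in part set by the choice. The SD of the misfit was 0.17 in direction 1 and 0.36 in direction 2, against 0.24 over all spots.

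**Figure D3:**
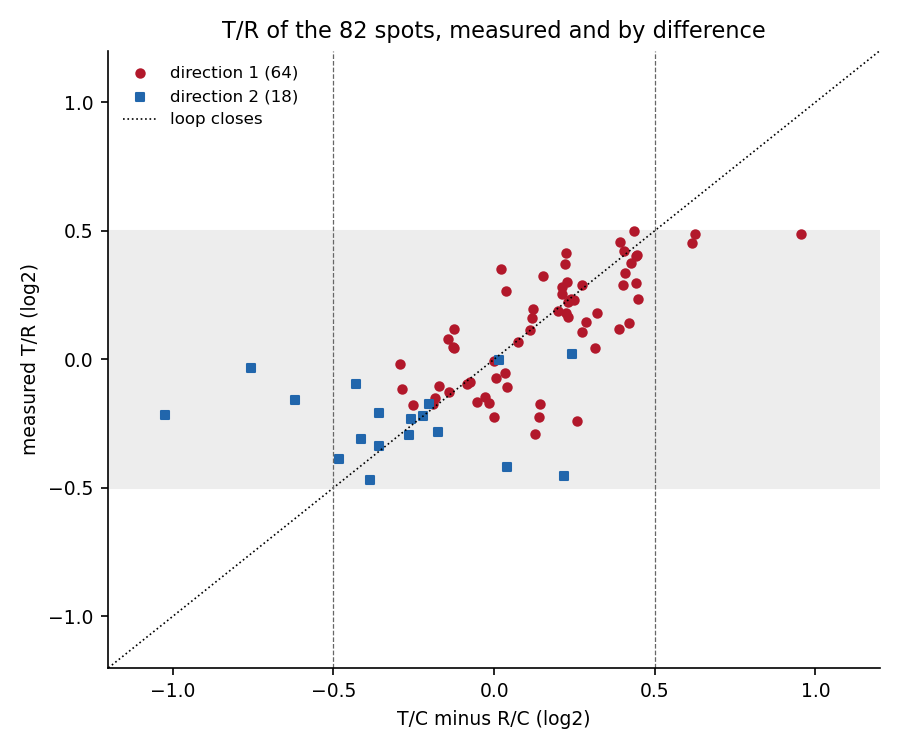
Measured T/R (vertical) against T/C minus R/C (horizontal) for the 82 alike spots, as dye-balanced log2 means. The grey band and the dashed lines mark the limit of 0.5, and on the dotted line the loop closes. The 6 spots outside the dashed lines are alike by the measured ratio and not by the difference.

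The limits cut through a continuous spread. The member nearest to the T/C limit was spot 5040301 at 0.84, and the nearest spot outside was 1041001 at 0.80, just short of it. For R/C they were spot 11041210 at -0.80 and spot 5020808 at 0.78. For T/R they were spot 5030509 at 0.498 and spot 10020412 at -0.502. The T/C limit alone kept out 12 spots, the T/R limit alone 25 and the R/C limit alone 141.

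The partner of every singly chosen spot lay in the same direction in T/C and R/C. Of these 14 partners 7 missed the R/C limit alone, 5 the T/R limit alone, 1 both of these and 1 the T/C limit. The widest gap was at spot 1040714, with -0.98, -1.20 and -0.45 in T/C, R/C and T/R, against -0.96, -0.40 and -0.50 at its partner. Spot 7031202 had 1.51, 1.11 and 0.29, and its partner 1.11, 1.21 and 0.60. Spot 10010303, which had the largest T/C and R/C ratios of the set at -2.71 and -2.46, had a partner at -2.67 and -2.42. That partner was left out by its T/R ratio of -0.58 against -0.23. At the 34 full pairs the median difference between the spots was 0.06 in T/C and 0.06 in R/C, against 0.10 in each over all 4368 pairs. Both spots of a full pair had to pass the same limits, so this closeness is in part set by the rule.

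A further feature was the mean of the 9 centred arrays before turning. In this loop each pool appears equally often in Cy3 and Cy5, so additive pool differences cancel in that mean and it holds the dye ratio of the spot. Over all spots it had a wide spread with quartiles of -0.29 and 0.59 and a median of -0.03. At the alike spots the median was 0.74, 0.74 in direction 1 and 0.66 in direction 2, and all 82 lay between 0.23 and 1.03. This range held 37.9% of all spots. It is not particular to the alike spots, since 89.9% of the spots past 0.8 in T/C, 96.3% of those in R/C and 90.3% of those in T/R also lay in it. Intensities were not used here, and whether this dye ratio follows the brightness of a spot was not tested.

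**Figure D4:**
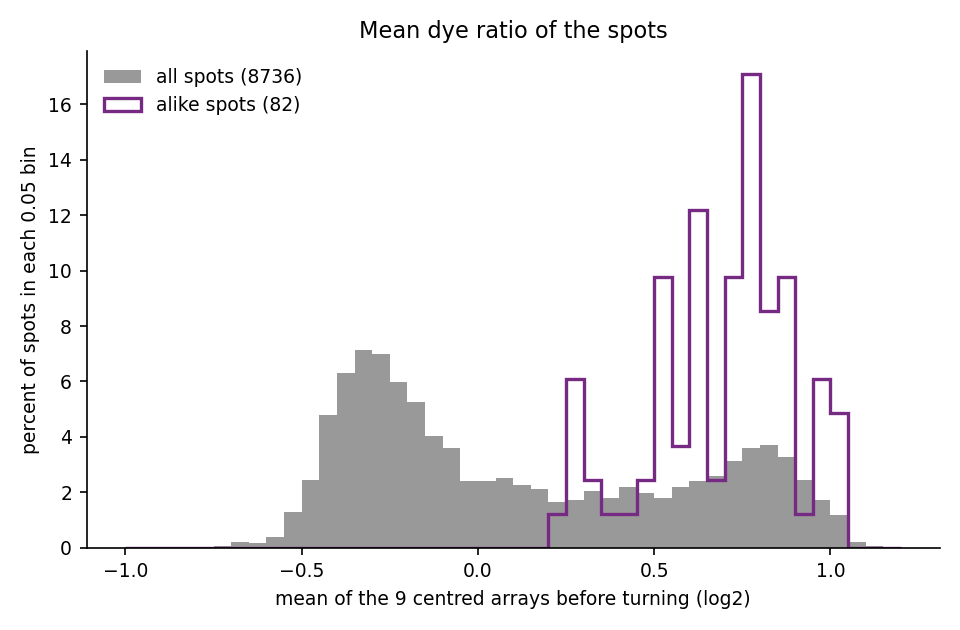
Distribution of the mean of the 9 centred arrays before turning (log2, bins of 0.05) for all 8736 spots in grey and for the 82 alike spots as a purple line, each as a percent of its set. The alike spots occupy the right-hand part of the distribution, from 0.23 to 1.03.

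On the slide, as the spot numbers give it, 28 of the 48 print blocks held an alike spot and 20 held none. The block in row 1 and column 1 held 10 of the 82, the most of any block, 8 in direction 1 and 2 in direction 2. Of the 4 columns of blocks, each with 2184 spots, the fourth held 32 alike spots and the others 22, 12 and 16. In column order, spots past 0.8 in T/C numbered 137, 94, 121 and 154, and those in R/C 40, 26, 30 and 39. An uneven layout with the highest counts in columns 1 and 4 was thus not particular to the alike spots. The lead of column 4 over column 1 was 32 against 22 at the alike spots and 154 against 137 in T/C. It was absent in R/C, at 39 against 40. When each print block was centred on its own median the set numbered 76, of which 71 were among the 82. The 4 columns then held 20, 11, 15 and 30, and the first block again 10. The part of print position in the result was not tested beyond this.

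**Figure D5:**
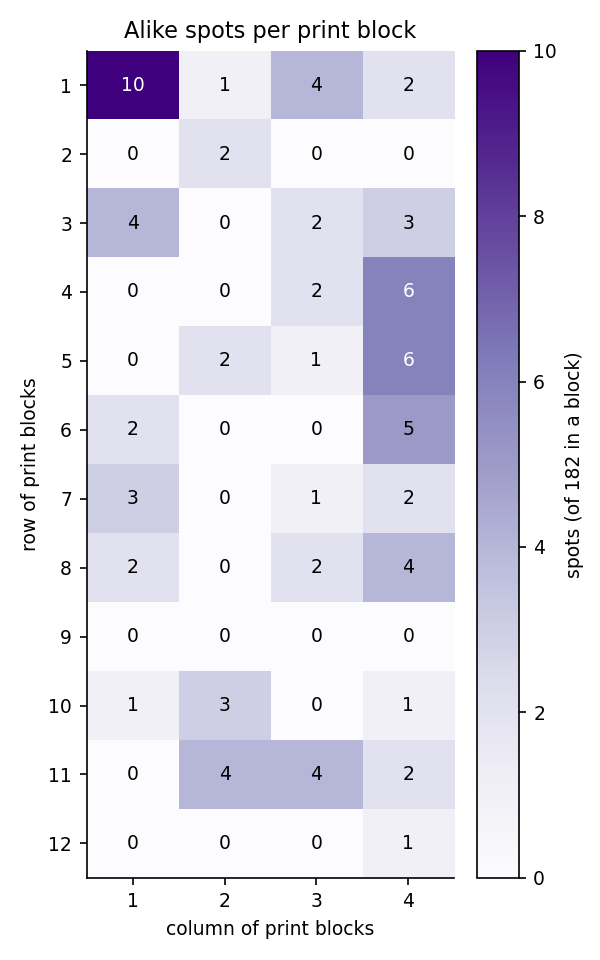
Number of alike spots in each of the 48 print blocks, laid out by row and column of blocks, out of 182 spots in a block. The count is 10 in the block of row 1 and column 1, and row 9 has none.

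Many pairs of the set had like profiles. Over the 9 arrays, trend removed, the nearest of the 4367 other pairs by root mean square difference was another pair of the set for 44 of the 48 pairs. The members were chosen for like ratios, so this likeness is in part set by the rule. The closest were pairs 5041205 and 4041207 at 0.08, followed by 1010913 and 1011101 at 0.09. Pair 2021001, in another block, was nearest to 1010913 at 0.10. Pair 1010913 stood at 1.04, 1.26 and 1.21 on the 3 T/C arrays, at 1.15, 1.47 and 1.20 on the R/C arrays and at 0.09, -0.21 and -0.14 on the T/R arrays. Pair 1011101 stood at 1.11, 1.25 and 1.20 on the 3 T/C arrays, at 1.30, 1.48 and 1.23 on the R/C arrays and at -0.09, -0.15 and -0.05 on the T/R arrays. Both ran slightly higher in R/C than in T/C, as pair 1030313 did. Pair 1011001 had the most isolated profile, at 0.49 from its nearest pair of the set. Whether pairs with like profiles carry the same transcript was not tested.

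Among the spots with a T/C ratio of at least 0.8, the alike spots were a minority, though not the smallest class. Of 506 such spots, 82 were alike and 104 differed at full ration only, with R/C below 0.5 and T/R of at least 0.8. A further 50 were graded, with R/C and T/R both at least 0.5, and 270 fitted none of these rules. The median T/C difference was 2.42-fold at the alike spots, 2.06-fold at the full-ration spots and 2.60-fold at the graded spots. The median R/C difference was 2.16-fold, 1.14-fold and 1.69-fold in the same order, as the rules require. The share in direction 1 was 78.0%, 77.9% and 82.0%. The median dye ratio was 0.74, 0.75 and 0.74. With the dye trend removed, the median SD of the T/C arrays was 0.14, 0.13 and 0.18. On that scale the R/C arrays had 1 sign at all 82 alike spots, 53 full-ration spots and all 50 graded spots. No test was made between these sets, which share all arrays, and in direction, dye ratio and array spread they had like values.

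Arrays can be set against a choice that did not use them, although they hold the same RNA and the dye trend was fitted with all 9 arrays. With the dye trend removed, leaving out T/C array 2 chose 65 spots, all on the same side on that array. Of these, 58 reached 0.8 there, where 4.74% of all spots did. Without T/C array 3 the rule chose 65 spots, again all on the same side on the array left out, and 60 reached 0.8, against 5.82% of all spots. Without R/C array 1 it chose 71, of which 70 lay on the same side and 53 reached 0.8, against 1.71%. Without R/C array 2 it chose 65, all on the same side, of which 50 reached 0.8, against 2.51%. The same side was kept by 65.6% and 67.0% of all spots on T/C arrays 2 and 3. On R/C arrays 1 and 2 it was kept by 59.1% and 59.6%. For T/R, 55 of 71 spots lay below 0.5 on array 1 when it was left out, and 59 of 65 on array 2, where 86.4% and 86.6% of all spots did. The difference from the control thus recurred on the T/C and R/C arrays left out here. These arrays are repeat hybridisations of the pools used in the choice. Such a recurrence is therefore in part set by the choice and does not bear on other fish. Each of the arrays left out had another array of its dye order still in the choice. The nearness of the transgenic pools recurred at a rate close to that of all spots on T/R array 2 and below it on T/R array 1. T/C array 1, R/C array 3 and T/R array 3, alone in their dye order, were not used in this way. An effect of dye order common to like arrays was therefore not tested.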

How the data were processed

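Liver RNA pools of coho salmon were compared on 9 dye-paired cDNA arrays of a single slide batch, per the labels. The authors deposited 1 value per spot and array, taken here as a log2 ratio of the channels. Raised as powers of 2, 995 of the 78624 deposited values came out as whole-number fractions (denominators up to 1000), while base e gave 15 and base 10 gave 47. No source used here gives the scanner, background treatment, filters or numerator dye. No value was missing. Intensities were not used, so dim and saturated spots were not set apart, and the number of arrays limits the precision.

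Array medians were subtracted, signs were turned to 1 dye order, arrays of like order were averaged, and then the 2 orders. The dye trend was removed with a lowess curve (fraction 0.3, 3 iterations, statsmodels 0.14.6, Python 3.11.15) of each centred array on the mean of the 9 arrays. The print layout, 48 blocks with 13 rows by 14 columns, is a reading of the spot numbers. The rule was checked on simulated data with planted differences of a single size well above the limit, either alike or at full ration only. That check does not cover spots near the limits or graded spots. The members, limits and gene lists were chosen with earlier results of these data known. Named pairs are the 6 full pairs per direction with the largest value of the smaller ratio, those with the smallest and largest T/R ratio, the 2 single spots farthest from their partners and the spots nearest to each limit. Spot 10010303 and pairs 1010913, 1011101, 8041201, 6040909 and 11041209 were named after their values were seen. No test across conditions was made because each condition is 1 pool.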

Additional observations from a re-analysis of the deposited data

How the results depend on the processing

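Removal of the dye trend combined with leaving out arrays was chosen after the values were seen. In every alternative that altered T/C or R/C values, all 82 spots kept their sides in both, except that 80 did without R/C array 3. The spots were chosen for large T/C and R/C ratios on these same arrays. Kept sides are therefore in part set by the choice. Alternatives that touch only T/R, the limits or the choice of spots leave these values as they are, so no side could change there. The number of alike spots was 53 with plain means of 3 arrays, 51 with a size limit of 1.0 and 142 with 0.6, and 20 to 138 with 1 array left out. It was 20 without T/R array 3, 36 without T/C array 1 and 138 without R/C array 3, the arrays whose loss leaves the dyes uncancelled, and 73 to 87 without any of the others. It was 67 with the dye trend removed, 59 of them among the 82, and then 63 to 71 with 1 array left out. T/C minus R/C in place of the measured T/R gave 80, 76 of them among the 82. The other alternatives gave 62 to 93. The share in direction 1, 78.0%, was 67.2% with the dye trend removed. Together with that removal it was 64.8% without T/R array 1 and 66.2% without R/C array 1, and on centred values 25.0% to 94.9% with 1 array left out. The median of R/C as a percent of T/C, 83.9%, was 126% with plain means, 98.2% with equalised spread and 79.8% to 190% with 1 array left out. It was 190% without T/C array 1 and 141% without R/C array 3. Of 330 values of named pairs under alternatives, 187 moved by less than the SD of the arrays with the dye trend removed. Of the 30 that lost the array alone in its dye order 2 did, with a median shift of 0.80 (log2), and of the 60 that lost another array 48 did, with a median shift of 0.09. Of all 330 values 1 changed side. That was R/C of pair 1040713, at 0.12 without R/C array 3 and down to -0.86 with another array left out. No paired analysis was possible because a number marks a repeat hybridisation and ties no fish or pools together.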
